A study of Mus musculus with 18 samples.

Results

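The genes described here are 10 imprinted genes of the mouse: Airn, Igf2r, Peg3, Plagl1, Igf2, H19, Cdkn1c, Grb10, Meg3 and Dlk1. They were chosen by name, and each was read from the array rows annotated with that symbol and no other. Of the 10, 9 had such a row, 1 each, among 19752 genes with a row of their own, and no row of the table used here is named H19, which gets no value. At an imprinted gene the copies inherited from mother and father carry different DNA methylation, laid down in the germ line and protected in the embryo by zinc finger proteins and their partners, and only 1 parental copy is transcribed in many tissues. Igf2r, Cdkn1c, H19, Meg3 and, in most tissues, Grb10 are known for expression from the maternal copy, and Airn, Igf2, Peg3, Plagl1 and Dlk1 for expression from the paternal one. Many of them govern fetal growth, and several are known to be abundant in the fetus and newborn and low in adult tissues. An array reads the RNA of both copies together, so the values below are total levels and say nothing of the parental copy.

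The levels come from 18 Affymetrix Mouse Gene 1.0 ST arrays of sorted regulatory T cells (Tregs), the Foxp3-expressing CD4+ lymphocytes that hold immune responses in check, in 6 groups of 3. All mice were on the NOD background, which is prone to autoimmune diabetes. In 4 groups the cells were from the spleens of females aged 60 days that carried Foxp3-eGFP-Cre-ERT2 and Rosa26-YFP. In such mice Foxp3 drives a Cre that works only while tamoxifen is present, and a cell that recombines then, and its offspring, keep YFP. Perinate-tagged cells were GFP+YFP+ after 4 injections of tamoxifen between days 0 and 10, adult-tagged cells were GFP+YFP+ after 4 injections between days 35 and 45, and untagged perinate-treated and untagged adult-treated cells were the GFP+YFP- Tregs sorted after either treatment. The tag marks Tregs present at treatment, so untagged cells may be of any other age, and all 4 spleen groups had received tamoxifen. Perinate thymus and adult thymus cells were CD4+ GFP+ thymic Tregs of males aged 4 days and 5 weeks. Spleen and thymus groups differ in sex and sorter as well as tissue and age. Nothing in the labels tells if a replicate is an animal, a pool or a repeat of 1 sort, so the p-values measure the spread between these samples, which may be technical.

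The windows around the annotated starts of the 5 members that the results turn on are shown first, for their content of CG, the dinucleotide at which imprints are methylated, which is set in capitals. They are 300 bases long (250 before the start and 50 after it), written 5′ to 3′ on the strand of the gene, and come from RefSeq on GRCm38.p6, a C57BL/6J genome and not the NOD genome of these mice. Of the 10 members 8 had at least 1 window in that table, 13 windows in all.
Airn, chr17:12741061-12741360, forward strand: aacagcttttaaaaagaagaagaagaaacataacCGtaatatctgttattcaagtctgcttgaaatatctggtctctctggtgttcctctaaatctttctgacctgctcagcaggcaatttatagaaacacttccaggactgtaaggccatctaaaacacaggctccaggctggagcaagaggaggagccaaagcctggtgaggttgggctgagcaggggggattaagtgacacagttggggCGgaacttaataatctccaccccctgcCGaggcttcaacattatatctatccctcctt
Igf2r, chr17:12769657-12769956, reverse strand: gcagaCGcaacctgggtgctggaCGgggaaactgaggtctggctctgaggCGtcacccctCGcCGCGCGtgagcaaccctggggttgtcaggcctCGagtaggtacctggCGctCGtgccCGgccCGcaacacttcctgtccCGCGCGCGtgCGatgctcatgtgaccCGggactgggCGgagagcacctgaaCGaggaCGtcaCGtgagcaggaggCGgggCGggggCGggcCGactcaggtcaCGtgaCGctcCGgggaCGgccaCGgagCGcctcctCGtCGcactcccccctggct
Plagl1, chr10:13090582-13090881, forward strand: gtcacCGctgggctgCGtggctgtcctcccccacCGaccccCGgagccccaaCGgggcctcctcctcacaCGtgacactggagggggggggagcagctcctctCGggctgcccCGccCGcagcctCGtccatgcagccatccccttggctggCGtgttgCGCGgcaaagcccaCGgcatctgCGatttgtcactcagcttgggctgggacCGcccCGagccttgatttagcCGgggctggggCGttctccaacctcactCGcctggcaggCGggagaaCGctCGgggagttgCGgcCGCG
Peg3, chr7:6730370-6730669, reverse strand: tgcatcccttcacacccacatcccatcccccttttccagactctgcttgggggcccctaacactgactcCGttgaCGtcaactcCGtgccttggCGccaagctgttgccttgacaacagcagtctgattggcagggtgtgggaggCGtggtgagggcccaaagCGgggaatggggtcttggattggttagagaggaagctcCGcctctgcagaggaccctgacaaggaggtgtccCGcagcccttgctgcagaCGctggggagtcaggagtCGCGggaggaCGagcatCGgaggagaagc
Dlk1, chr12:109452573-109452872, forward strand: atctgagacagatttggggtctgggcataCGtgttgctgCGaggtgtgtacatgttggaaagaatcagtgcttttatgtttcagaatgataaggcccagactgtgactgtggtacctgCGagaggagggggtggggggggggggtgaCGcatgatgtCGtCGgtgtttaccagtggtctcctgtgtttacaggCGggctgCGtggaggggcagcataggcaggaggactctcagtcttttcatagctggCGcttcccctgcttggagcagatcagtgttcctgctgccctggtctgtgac
The windows of Airn and Igf2r, a pair at 1 locus of chromosome 17, stood far apart in CG content. The Airn window held 3 CG dinucleotides, a number that 76.7% of the 32851 windows of the table reached or passed, and the Igf2r window held 34, which 7.7% of windows did. Plagl1 had 26 (16.9% of windows had as many), Peg3 had 13 (37.9%) and Dlk1 had 9 (45.8%), against a median of 7 over all windows. The hexamer TGCCGC, which the imprint-protecting protein ZFP57 is known to bind when methylated, was searched on both strands and occurred once in the window of Plagl1 and in none of the other 4. It occurred in 11.6% of all windows. The letters CCATNTT, the core known for the factor YY1, were in none of the 5 windows and in 16.1% of all. A match is a description of the letters and not of binding.

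Airn is a long noncoding RNA that starts inside Igf2r and runs against it. In the RefSeq annotation the 2 genes overlap on opposite strands, and the whole Airn window lies inside the Igf2r gene. Transcription of Airn is known to silence Igf2r on the paternal chromosome in most mouse tissues. The sources used here do not say which bases the probes of either gene cover, so a contribution of one transcript to the other's signal was not tested.

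Before the results, arrays that stand apart have to be named. Perinate-tagged replicate 2 is labelled female, yet the Y-linked gene Eif2s3y read 9.79 on the log2 scale there, while the 11 remaining spleen arrays had 3.95 to 4.9. Xist, which coats the silenced X chromosome of females, read 8.38 on it, against 11.86 to 12.41. Untagged adult-treated replicate 3 held transcripts of pancreatic islets: Ins2, an insulin gene that is itself imprinted in some tissues, read 11.98 against 6.36 to 7.04 on the other 17 arrays, and Iapp, a hormone of the insulin-producing cell picked after its value was seen, read 12.26. The untagged replicates 3 of both treatments also differed from replicates 4 and 5, as in Igfbp4, a binding protein for insulin-like growth factors, at 10.33 and 9.95 against 7.87 to 8.29. The Treg marker Foxp3 and its list companions gave a summed linear level of 24815 to 29962 on all arrays, and Cd8a read 9.71 to 10.4 in thymic cells, against 6.41 to 6.94 in spleen. Depth does not apply to arrays: their number limits the precision. The spread of values, as the interquartile range on the log2 scale, ran from 2.08 to 3.12 and was 2.94 to 3.12 on perinate-tagged arrays, 2.49 to 2.88 on adult-tagged arrays, 3.00 to 3.06 on perinate thymus arrays and 2.08 to 2.82 on adult thymus arrays.

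To tell expression from background, the members were set beside 18 genes of other tissues, such as lens, liver and muscle, that T cells are not known to use. These 18 genes read 4.56 to 7.93 on single arrays with a median of 6.08, and their highest group mean was 7.63, called the background level here. Airn, Igf2r, Plagl1 and Dlk1 lay above it in all 6 groups. Airn was the highest, with a mean of 10.67 over 18 arrays that put its row above 96.3% of all genes, followed by Igf2r at 9.89, Plagl1 at 9.29 and Dlk1 at 7.96. Levels of different genes come from different probes, and these ranks describe signals, not amounts of RNA. Dlk1 was only just above, with its lowest group mean at 7.74. Peg3, Igf2, Cdkn1c, Grb10 and Meg3 had group means at or below the background level in all 6 groups. Grb10 and Meg3 read 5.45 to 6.75 on every array and did not reach the expression filter of any fit, a group mean of 7.05 on the log2 scale, and Peg3 reached it in the thymus only.

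**Figure D1:**
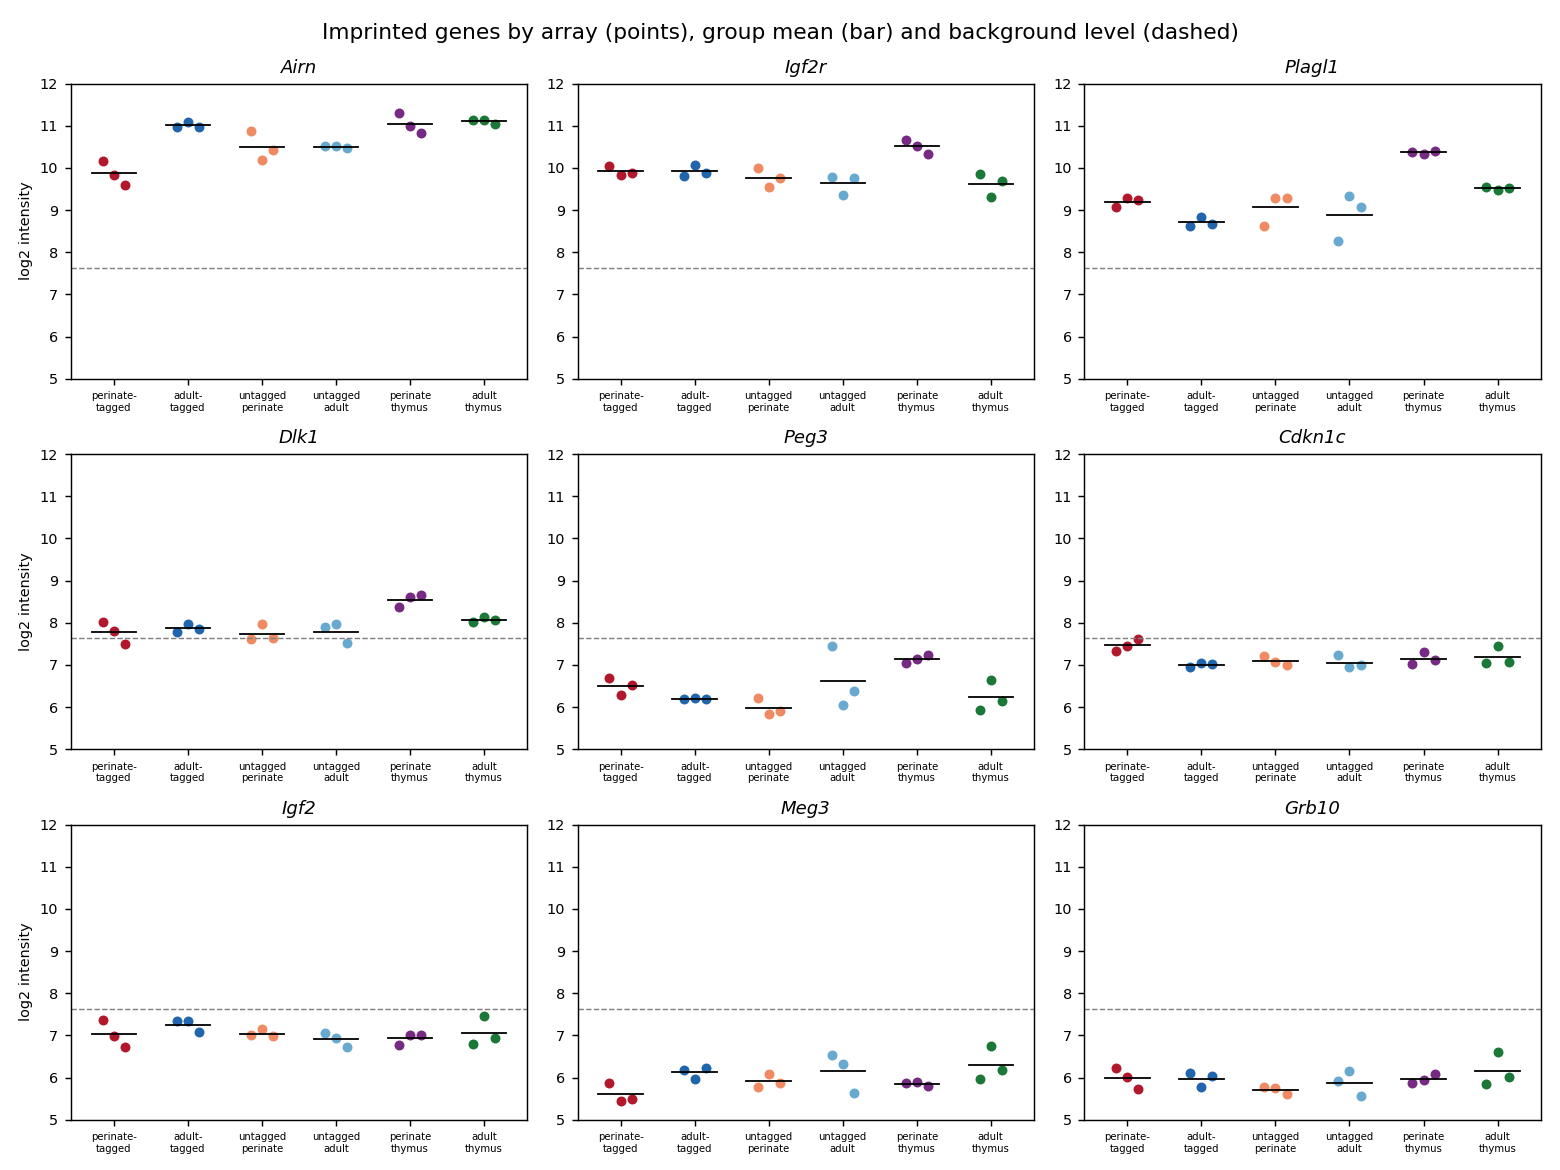
Log2 intensity of the 9 imprinted genes with a row, 1 panel per gene and 1 point per array, in the 6 groups. Bars are group means (n = 3) and the dashed line is the background level of 7.63. Airn is lowest on the 3 perinate-tagged arrays, Igf2r, Plagl1 and Dlk1 are highest on the 3 perinate thymus arrays, and the lower 5 genes stay under the line in their group means.

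In the spleen the clearest difference was in Airn, which was lower in Tregs tagged around birth than in Tregs tagged in adult life. Airn read 10.17, 9.84 and 9.60 on the perinate-tagged arrays, against 10.97, 11.10 and 10.96 on the adult-tagged arrays. Each perinate-tagged array lay below every adult-tagged one, and 45.8% of all genes tested had groups that did not overlap here. The means were 9.87 ± 0.29 and 11.01 ± 0.08 (SD, n = 3 each), a log2 difference of -1.14 ± 0.17 (SE), or 2.2-fold lower in perinate-tagged cells, with an adjusted p of 0.000356 in limma over 10350 genes (12 arrays). Of the 6 members tested in the spleen, 2 passed an adjusted p of 0.05, 1 higher and 1 lower, beside 19.5% of all genes tested (16% higher and 3.5% lower). Without perinate-tagged replicate 2, whose sex genes go against its label, the Airn difference was -1.29 with an adjusted p of 0.000238 in limma. The perinate-tagged arrays carry the replicate numbers 2, 4 and 5, and the adult-tagged arrays 1, 2 and 3. The labels do not say what these numbers mean, and apart from number 2 they cannot be told apart from the time of tagging.

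Some marker genes also passed between the tagged groups, as did 19.5% of all genes tested. Epcam, an epithelial adhesion protein, was the 1 of 4 tested genes of the stromal list that passed. It averaged 7.54 in perinate-tagged and 6.47 in adult-tagged Tregs, both below the background level. It passed in the tagged minus untagged and spleen minus thymus differences too, beside 4.89% and 6.46% of all genes. The summed linear level of that list was 1709 to 1909 on perinate-tagged arrays and 1798 to 1892 on adult-tagged arrays. Il2ra, the high-affinity chain of the interleukin 2 receptor and the 1 of 6 Treg markers that passed, averaged 12.29 in perinate-tagged and 12.67 in adult-tagged Tregs. Mki67, a protein of dividing cells that was picked after the values were seen, averaged 10.93 ± 0.09 in perinate-tagged Tregs, 8.28 ± 0.47 in adult-tagged, 9.60 ± 0.38 in untagged perinate-treated and 9.79 ± 0.24 in untagged adult-treated Tregs (SD, n = 3 each). Among the spleen groups it was thus highest in perinate-tagged and lowest in adult-tagged cells, where Airn was lowest and highest. It was higher in perinate-tagged than in adult-tagged Tregs by 2.65 ± 0.22, and the tagged difference exceeded the untagged one by 2.84 ± 0.31 (SE, adjusted p 2.82e-06 and 0.000132 in limma). In the thymus Mki67 averaged 10.60 in perinate and 8.96 in adult cells, and Airn, which did not pass there, averaged 11.05 and 11.11. The part of other cells or of dividing cells in the Airn difference was not tested.

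The other gene past the threshold was Cdkn1c, which encodes the cell cycle inhibitor p57. It read 7.34, 7.45 and 7.61 on the perinate-tagged arrays, against 6.95, 7.04 and 7.02 on the adult-tagged arrays. The groups did not overlap, as for 45.8% of all genes tested, but all 6 values lie below the background level. The log2 difference was 0.46 ± 0.12 (SE) with an adjusted p of 0.0169 in limma, which was 0.186 once the arrays' interquartile ranges entered the fit and 0.0929 with the replicate block, and it missed the threshold when adult-tagged replicate 1 or 3 or perinate-tagged replicate 4 or 5 was left out (0.0551 to 0.0959).

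Igf2r, the receptor that carries insulin-like growth factor 2 and mannose-6-phosphate-tagged enzymes to lysosomes, did not pass in the spleen. It read 10.05, 9.84 and 9.87 on the perinate-tagged arrays, against 9.80, 10.07 and 9.88 on the adult-tagged arrays, and the groups overlapped. The log2 difference was 0.01 ± 0.15 (SE), with a 95% interval of -0.32 to 0.33 and an adjusted p of 0.983 in limma. Plagl1, a zinc finger transcription factor of fetal growth, read 9.08, 9.29 and 9.23 on the perinate-tagged arrays, against 8.62, 8.84 and 8.67 on the adult-tagged arrays. These groups did not overlap, as was the case for 45.8% of the genes tested, and the difference of 0.49 ± 0.23 (SE) missed the threshold (adjusted p 0.144 in limma). The untagged cells in the same fit spread more: Plagl1 read 8.63 on perinate-treated and 8.27 on adult-treated replicate 3, against 9.08 to 9.33 on replicates 4 and 5. Fitted on the 6 tagged arrays alone it had an adjusted p of 0.00644, and with the replicate block in the spleen fit the difference was 0.03 with an adjusted p of 0.943. Without untagged adult-treated replicate 3, the array with the islet transcripts, the adjusted p was 0.0466 in limma. Plagl1 passed under 4 of 25 alternatives. Igf2, the fetal growth factor, and Dlk1, a Delta-like membrane protein, differed by -0.23 ± 0.16 and -0.09 ± 0.16 (SE), and neither passed (adjusted p 0.309 and 0.732 in limma). Over the 6 members tested the median log2 difference was -0.04, against 0.12 over all genes.

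The untagged Tregs give the comparison of the 2 treatment ages in cells without the tag. Airn read 10.88, 10.20 and 10.42 in untagged perinate-treated cells, against 10.52, 10.53 and 10.47 in untagged adult-treated cells. The perinate-treated values spanned the adult-treated ones, and the log2 difference was -0.01 ± 0.17 (SE, adjusted p 0.998 in limma). None of the 6 members tested passed in limma between the untagged groups, and neither did any other gene (0% of genes, with 380 at an unadjusted p under 0.05). The replicate numbers 3 to 5 were taken to pair these arrays, and with that pairing as a block in a fit of the 6 untagged arrays 49 genes passed, among them 0 members. The difference in Airn between the tagged groups exceeded that between the untagged groups by -1.13 ± 0.24 (SE) on the log2 scale, with an adjusted p of 0.0124 in limma. It was the only member of 6 to pass that test of the difference, beside 4.89% of all genes (0.599% lower). With the replicate block in the spleen fit it missed the threshold, at -0.93 with an adjusted p of 0.0537.

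Set against the untagged cells of perinate-treated mice, the perinate-tagged cells were again lower in Airn. The labels do not say whether both came from the same mice. Their mean of 9.87 stood against 10.50 ± 0.35 (SD, n = 3) in untagged perinate-treated cells, a log2 difference of -0.63 ± 0.17 (SE) with an adjusted p of 0.0359 in limma. Airn was the 1 member of 6 that passed, beside 7.34% of all genes (1.86% lower). All 3 perinate-tagged values, up to 10.17, lay below the lowest untagged one, 10.20, and 32% of all genes had groups that did not overlap here. This call held under 17 of 25 alternatives, with an adjusted p of up to 0.18. It was lost without adult-tagged replicate 1 or 3, perinate-tagged replicate 4 or 5, or untagged perinate-treated replicate 3 or 5. Adult-tagged cells had Airn at 11.01, against 10.51 ± 0.04 (SD, n = 3) in untagged adult-treated cells. That difference of 0.50 ± 0.17 (SE) did not pass (adjusted p 0.191 in limma), with 0 of 6 members and 0.271% of all genes past the threshold. That share moved with the arrays used: 28 genes passed with all of them, and 774 genes and 0 members without untagged adult-treated replicate 3. Without untagged perinate-treated replicate 3 it was 259 genes. It was 0 genes without adult-tagged replicate 1 or 3, or without untagged adult-treated replicate 4 or 5. By its means across the spleen groups Airn was highest in adult-tagged cells, lower in both untagged groups, whose values overlapped, and lowest in perinate-tagged cells.

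In the thymus other members differed: Igf2r, Plagl1, Dlk1 and Peg3 were higher at 4 days than at 5 weeks, and Airn did not pass. Of the 7 members tested 4 rose and 0 fell, beside 24.3% of the 10650 genes tested (18.5% higher). The median log2 difference of the 7 was 0.48, against 0.17 over all genes. Peg3 reached the filter of 7.05 only through perinate thymus, its higher group, so it could enter these counts only as higher. Grb10 and Meg3 stayed below the filter. In a fit without it they differed by -0.185 and -0.441, and neither passed (adjusted p 0.466 and 0.138 in limma). Igf2r read 10.67, 10.53 and 10.34 in perinate thymus, against 9.85, 9.31 and 9.69 in adult thymus. The lowest perinate value was above the highest adult one, as for 53.6% of genes in either direction, and the log2 difference was 0.90 ± 0.17 (SE), 1.86-fold, with an adjusted p of 0.00928 in limma (6 arrays). The adjusted p was 0.0569 without perinate thymus replicate 1.

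Plagl1 had the tightest replicates of the members in the thymus. It read 10.38, 10.33 and 10.41 in perinate thymus, against 9.54, 9.48 and 9.52 in adult thymus. The means of 10.37 ± 0.04 and 9.51 ± 0.03 (SD, n = 3 each) differed by 0.86 ± 0.10 (SE), 1.82-fold, with an adjusted p of 0.00159 in limma. Dlk1 read 8.38, 8.61 and 8.66 in perinate thymus, against 8.01, 8.14 and 8.07 in adult thymus. The groups did not overlap, as for 53.6% of all genes tested. The difference of 0.48 ± 0.12 (SE) had an adjusted p of 0.0285 in limma, but it was 0.25 with an adjusted p of 0.259 after quantile normalization. Peg3, a zinc finger protein of the placenta and brain, read 7.04, 7.14 and 7.23 in perinate thymus, against 5.92, 6.64 and 6.14 in adult thymus. The difference was 0.91 ± 0.18 (SE) with an adjusted p of 0.0129 in limma, and both means, 7.14 and 6.23, are below the background level. Peg3 was not called without adult thymus replicate 3 or any 1 of the perinate thymus arrays. Its highest value of all, 7.44, was on untagged adult-treated replicate 3, the array with the islet transcripts.

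Airn read 11.31, 11.00 and 10.83 in perinate thymus, against 11.13, 11.14 and 11.05 in adult thymus. The groups overlapped and the log2 difference was -0.06 ± 0.14 (SE), with a 95% interval of -0.39 to 0.27 and an adjusted p of 0.761 in limma. Igf2 and Cdkn1c differed by -0.12 ± 0.18 and -0.04 ± 0.15 (SE, adjusted p 0.611 and 0.853 in limma). Markers of other cells were read beside these. Of the list for stroma and endothelium 1 of 4 tested genes was higher in perinate thymus (Pecam1, 10.13 against 9.57), beside 24.3% of all genes called. The summed linear levels of that list were 1693 to 1857 against 1421 to 1553. Most of its genes had lower means in perinate thymus: Col1a1 (7.53 against 7.85), Col3a1 (6.96 against 7.21), Dcn (5.79 against 6.07) and Cdh5 (6.57 against 6.75). Epcam stood at 7.42 against 7.36. Cd8a was lower, with the 2 CD8 genes summing to 1323 to 1408 against 1831 to 1989. Summed linear levels of 3 B cell genes were 145 to 154 against 190 to 239, and of 4 myeloid genes 250 to 283 against 287 to 405. The part of such cells in the member differences was not tested. In bulk samples a change in how many cells express a gene and a change per cell cannot be told apart.

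**Figure D2:**
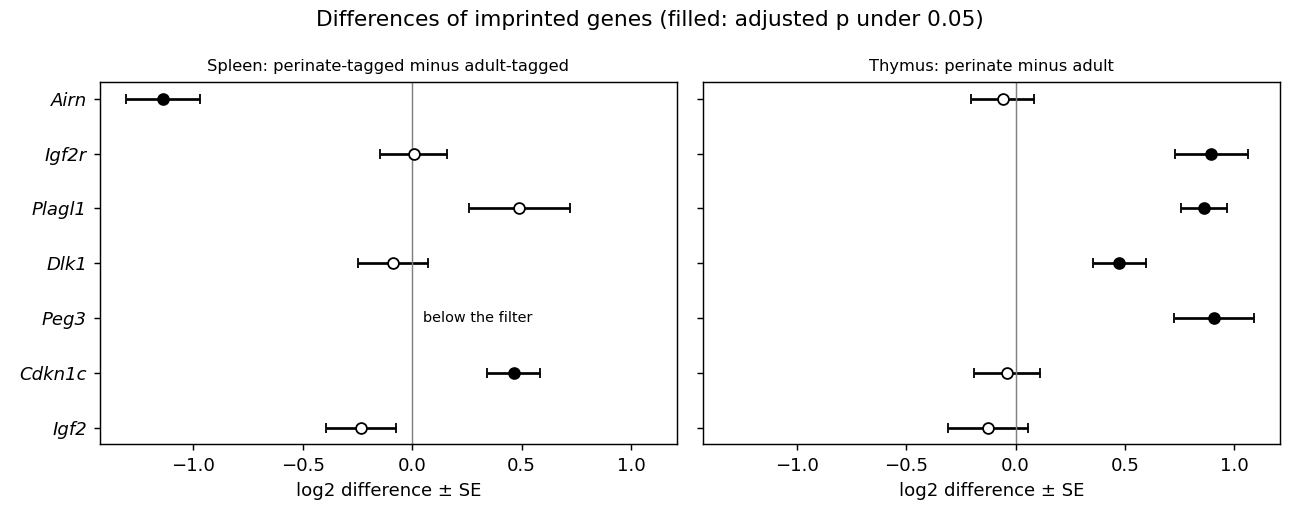
Log2 difference ± SE of the 7 imprinted genes that reached the expression filter, for perinate-tagged minus adult-tagged spleen Tregs (left) and perinate minus adult thymic Tregs (right). Filled points passed an adjusted p of 0.05. Airn stands alone at -1.14 on the left and at -0.06 on the right, where Igf2r, Plagl1, Dlk1 and Peg3 lie between 0.48 and 0.91.

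The difference between the 2 tissues was tested itself, as the tagged spleen difference minus the thymus difference in a fit of all 18 arrays. Airn gave -1.08 ± 0.24 (SE) with an adjusted p of 0.00863, and Igf2r gave -0.89 ± 0.23 (SE) with an adjusted p of 0.0239, both in limma over 10889 genes. Igf2r lost its call without adult-tagged replicate 2, perinate-tagged replicate 4 or 5, or perinate thymus replicate 1 or 2 (adjusted p up to 0.0796). These were 2 of 7 members tested, both negative, beside 6.46% of all genes (2.56% negative). For Dlk1 the tissues differed by -0.56 ± 0.21 (SE), for Peg3 by -0.61 ± 0.35 and for Plagl1 by -0.37 ± 0.29, and none of the 3 passed (adjusted p 0.125, 0.328 and 0.496 in limma). The 95% interval for Plagl1 was -0.99 to 0.24. With the replicate block the calls changed: Airn gave -0.87 (adjusted p 0.0534) and Igf2r -0.78 (0.0622), which both missed the threshold, and Plagl1 gave -0.83 and passed (0.0378). Since the 2 tissues also differ in sex, sorter and age, these cannot be told apart from the tissue.

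Ordered by level, Airn was highest in adult thymus (11.11 ± 0.05), perinate thymus (11.05 ± 0.25) and adult-tagged spleen cells (11.01 ± 0.08), whose values overlapped (SD, n = 3 each). Below them came untagged adult-treated (10.51) and untagged perinate-treated cells (10.50), and then perinate-tagged cells (9.87). Igf2r had 1 group apart, perinate thymus at 10.51 ± 0.16, and the other 5 group means lay between 9.62 and 9.92, with values that overlapped between neighbours in that order. Plagl1 was highest in perinate thymus (10.37), then adult thymus (9.51), and its 4 spleen means ran from 8.71 to 9.20. Dlk1 was highest in perinate thymus (8.55) and then adult thymus (8.07), and its spleen means of 7.74 to 7.86 did not differ beyond their spread. The 6 group means of Igf2 spanned 6.91 to 7.26 and single values of Cdkn1c spanned 6.95 to 7.61.

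**Figure D3:**
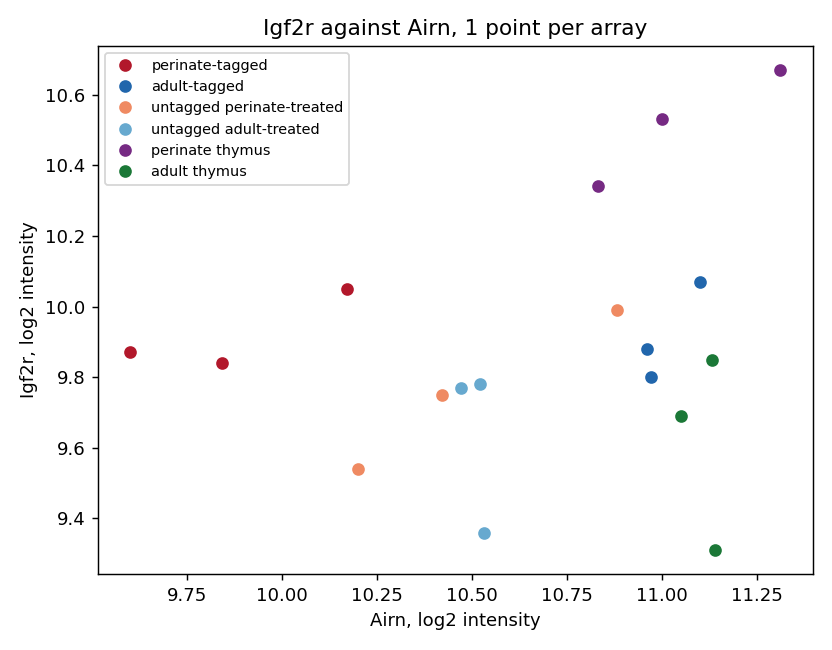
Igf2r against Airn in log2 intensity, 1 point per array, coloured by group. The perinate-tagged arrays lie to the left at 9.60 to 10.17 for Airn with Igf2r at 9.84 to 10.05, and the perinate thymus arrays lie at the top with Igf2r at 10.34 to 10.67.

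Genes with a pattern most like that of Airn and Igf2r were taken by Pearson's r over the 18 arrays, as a description of arrays that share groups and normalization. For Igf2r these were Hivep1 (r 0.967), Hcfc1 (0.944), Smarca4 (0.943), Itih5 (0.943) and Gtf3c1 (0.941). For Airn they were Kmt2c (0.883), Zdhhc14 (0.879), Slc25a27 (0.871), 1700025G04Rik (0.869) and Atf7 (0.864). Neither gene was among the other's nearest 5. Over the 6 group means r was 0.939 to 0.977 for the first 5 and 0.922 to 0.976 for the others.

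Among other imprinted genes and their cluster neighbours the share called was near that of all genes. Of 74 listed beside the members, 58 had a row, and 27 reached the filter in the spleen fit, 27 in the thymus fit and 29 in the fit of all arrays. In perinate-tagged against adult-tagged spleen cells 5 of 27 were higher and 1 lower, beside 19.5% of all genes called, with a median of 0.14 against 0.12 over all genes. Osbpl5, an oxysterol-binding protein, averaged 8.81 in perinate-tagged Tregs and 8.15 in adult-tagged Tregs (0.66 ± 0.14 SE, adjusted p 0.00476 in limma). Cd81, a tetraspanin of the lymphocyte surface, averaged 11.25 and 10.71 (0.54 ± 0.15, adjusted p 0.0242), and Atp10a, a lipid-flipping ATPase, 9.15 and 8.67 (0.47 ± 0.15, adjusted p 0.0443). The remaining calls had at least 1 mean below the background level of 7.63: Ddc, the enzyme that makes dopamine and serotonin, at 7.17 and 6.24, Tnfrsf23, a decoy receptor, at 7.86 and 7.10, and the lower one, Sfmbt2, a Polycomb protein, at 7.22 and 7.83. Ddc reached the filter of the spleen fit only through perinate-tagged cells, so it could be called only as higher.

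Tnfrsf23 was the 1 gene of 27 on that list to pass in the tagged minus untagged difference, beside 4.89% of all genes (0.99 ± 0.23 SE, adjusted p 0.0195 in limma). It read 8.10, 7.71 and 7.76 in perinate-tagged cells, against 6.98, 7.12 and 7.20 in adult-tagged cells, and 6.29 to 7.16 in the thymus. In perinate against adult thymus 4 of 27 genes of the list were higher and 1 lower, beside 24.3% of all genes called, with a median of 0.04 against 0.17 over all genes. Those higher were Ddc (0.63 ± 0.12 SE, with both means below the background level), Cd81 (0.55 ± 0.14), Dhcr7, the last enzyme of cholesterol synthesis (0.73 ± 0.19), and Sfmbt2 (0.56 ± 0.17), and Pon3, a lactonase with both means below that level, was lower at -0.81 ± 0.18 (adjusted p 0.00951, 0.0297, 0.0299, 0.0444 and 0.018 in limma). Ddc and Pon3 reached the filter of the thymus fit only through their higher group, perinate and adult thymus, so each could be called in 1 direction only. Sfmbt2 was lower in perinate-tagged spleen cells and higher in perinate thymus, and the difference between the tissues, -1.17 ± 0.26 (SE), passed with an adjusted p of 0.0108 in limma.

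Those genes that write imprints or shield them and passed the test were higher in perinate than in adult thymus, and in perinate-tagged than in adult-tagged spleen cells. Of 17 listed, all had a row and 13 reached the filter. Zfp57, the gene of ZFP57, did not reach it, and neither did Dppa3, Dnmt3b and Dnmt3l. In the thymus 9 of 13 rose and 0 fell, beside 24.3% of all genes called, with a median log2 difference of 0.76, against 0.17 over all genes. Uhrf1, which brings the maintenance methyltransferase to newly copied DNA, read 9.27, 9.06 and 9.32 in perinate thymus, against 7.97, 7.85 and 7.22 in adult thymus. All 3 perinate values were higher, and 53.6% of all genes had groups that did not overlap. The difference was 1.54 ± 0.20 (SE, adjusted p 0.00224 in limma), and the adult value of 7.22 lies below the background level. Dnmt1, that methyltransferase, averaged 10.42 in perinate and 9.44 in adult thymus (0.98 ± 0.11 SE), and Dnmt3a, which methylates new sites, 9.69 and 8.44 (1.25 ± 0.17). Trim28, the corepressor that ZFP57 recruits to imprints, averaged 10.29 and 9.52 (0.76 ± 0.13). Its partner Setdb1, a histone methyltransferase, averaged 9.14 and 8.46 (0.68 ± 0.14), and Zfp445, a zinc finger protein that guards imprints, 9.15 and 8.36 (0.80 ± 0.19). Cbx5, a heterochromatin protein, and Ehmt2, a histone methyltransferase, gave 1.29 ± 0.19 and 0.77 ± 0.22, and the adjusted p of these 7 genes after Uhrf1 was 0.00137 to 0.0407 in limma. The ninth gene, outside the rule for naming and added after its value was seen, was Arid4b, at 9.78 and 9.33.

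In the spleen 4 of the 13 were higher in perinate-tagged than in adult-tagged cells and 0 lower, beside 19.5% of all genes called, with a median of 0.23 against 0.12 over all genes. They were Uhrf1 at 8.46 and 7.31 (1.15 ± 0.15 SE, adjusted p 9.47e-05 in limma), Cbx5 at 9.32 and 8.68, Dnmt1 at 10.20 and 9.67, and Ehmt2 at 9.41 and 8.87. Of the 13 genes 2, Trim28 and Dnmt3a, passed the test of the difference between tissues, beside 6.46% of all genes (2.56% lower). Their differences were smaller in the spleen by -0.69 ± 0.18 and -0.91 ± 0.24 (SE, adjusted p 0.0255 and 0.0264 in limma). Mki67 differed in the same direction as these genes in both tissues, and averaged 10.60 ± 0.08 in perinate and 8.96 ± 0.02 in adult thymus (SD, n = 3 each). The part of dividing cells in these differences was not tested.

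**Figure D4:**
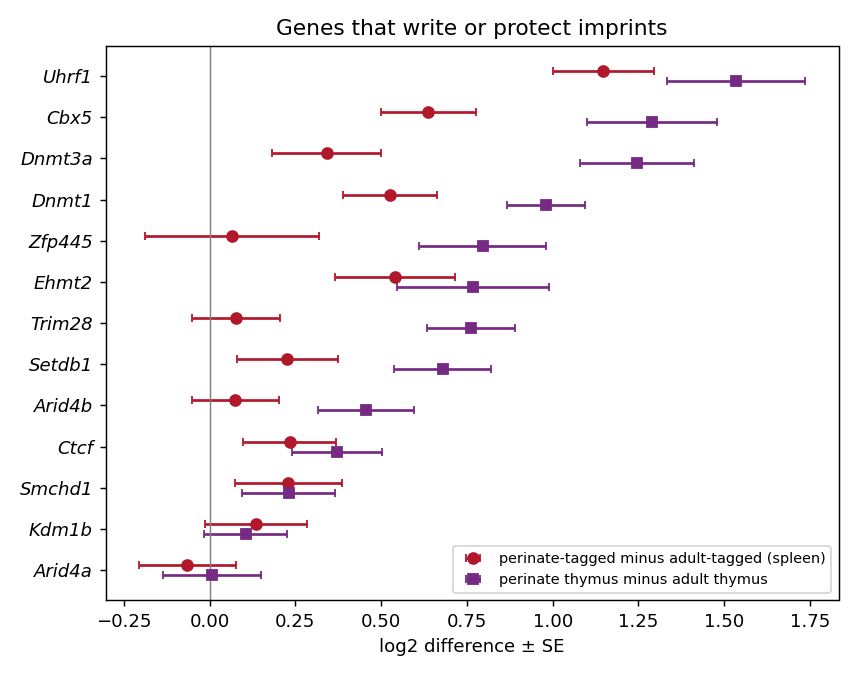
Log2 difference ± SE of the 13 genes that write or protect imprints and reached the expression filter, for perinate-tagged minus adult-tagged spleen Tregs (circles) and perinate minus adult thymic Tregs (squares). Uhrf1 leads both, at 1.15 and 1.54, and Dnmt3a and Trim28 lie further right for the thymus, at 1.25 and 0.76, than for the spleen, at 0.34 and 0.08.

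Around Igf2r, a list of 16 genes of the insulin-like growth factor and mannose-6-phosphate pathways had 14 genes with a row and 11 that reached the filter. In the spleen 1 of 11 was higher and 2 lower in perinate-tagged than in adult-tagged cells, beside 16% of all genes higher and 3.5% lower, with a median of -0.11 against 0.12 over all genes. Igf2bp3, a fetal RNA-binding protein that is known to bind Igf2 transcripts, read 7.85, 8.46 and 8.36 in perinate-tagged cells, against 5.41, 5.92 and 5.71 in adult-tagged cells. All adult-tagged values lie in the range of the background genes, so the log2 difference of 2.54 ± 0.17 (SE, adjusted p 1.52e-06 in limma) may understate the change. In the thymus it read 9.73, 9.62 and 9.54 at 4 days, against 6.49, 6.49 and 6.28 at 5 weeks (3.21 ± 0.12 SE, adjusted p 3.39e-05). In each tissue it reached the filter only through the perinate-tagged or perinate group, so it could be called only as higher.

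Igf1r, the signalling receptor of the pathway, went the other way in the spleen. It read 8.53, 8.61 and 8.63 in perinate-tagged cells, against 9.79, 9.92 and 9.66 in adult-tagged cells. The log2 difference was -1.20 ± 0.18 (SE, adjusted p 0.000396 in limma), and against untagged perinate-treated cells, at 9.95, it was -1.36 ± 0.18 (adjusted p 0.000533). In the thymus Igf1r averaged 9.37 in perinate and 9.45 in adult cells, and the tissues differed by -1.12 ± 0.30 (SE, adjusted p 0.0299). Gga3, an adaptor for cargo of the mannose-6-phosphate receptors, averaged 9.22 in perinate-tagged Tregs and 9.71 in adult-tagged Tregs (adjusted p 0.0125). Against untagged perinate-treated cells 1 of the 11 was higher and 3 lower, beside 7.34% of all genes called (1.86% lower). Insr, the insulin receptor, averaged 8.71 in perinate-tagged cells and 9.26 in untagged ones, and Irs2, an adaptor below both receptors, 7.85 and 8.32 (adjusted p 0.0456 and 0.0368 in limma). In the thymus 2 of the 11 rose and 0 fell, beside 18.5% of all genes higher, and they were Igf2bp3 and the adaptor Gga2, at 7.60 in perinate and 7.15 in adult thymus, both below the background level (0.45 ± 0.11 SE, adjusted p 0.0265).

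**Figure D5:**
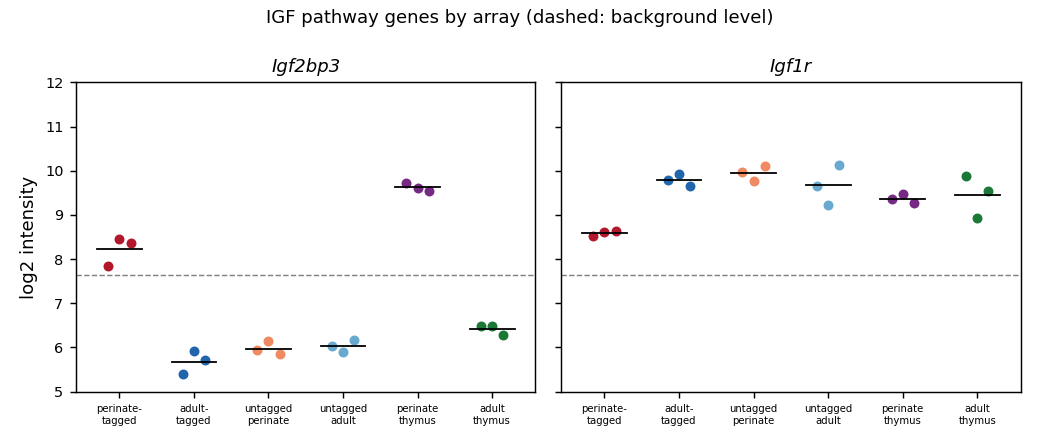
Log2 intensity of Igf2bp3 and Igf1r, 1 point per array, with group means as bars (n = 3) and the background level of 7.63 as a dashed line. Igf2bp3 is above the line on the perinate-tagged and perinate thymus arrays, and Igf1r is lowest on the perinate-tagged arrays, at 8.53 to 8.63.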

How the data were processed

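RNA of 18 Treg samples was extracted with TriZol and labelled with the Affymetrix WT Terminal kit, per the labels' protocols. The deposited table holds linear intensities of probe sets (6.81 to 18850), which the authors made by RMA in Affymetrix Power Tools, as the submitters' processing notes record. Versions and a genome build are not given in the sources used here. Of 24922 probe sets 21425 carry 1 symbol, 1399 several and 2098 none; 21347 were found in the RefSeq gene table by Entrez ID, which changed 0 symbols. A gene with several rows was read from the one with the highest mean.

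Values were log2 transformed, not normalized again, and tested with limma 3.58.1 in R 4.3.3 (two-sided moderated tests from lmFit and eBayes on group means) with Benjamini-Hochberg adjustment over all genes of a fit and a threshold of 0.05. A gene entered a fit when 1 group's mean log2 value was at least 7.05, which is 132.7 in deposited units and their overall median. The fits held 10350 genes (spleen, 12 arrays), 10650 (thymus, 6 arrays) and 10889 (all 18). There were 7 comparisons, of which those in the spleen share arrays. For a single gene with 3 arrays a group, the smallest p of an exact permutation is 0.1. On simulated data the spleen step (10104 genes) found 96 of 100 genes set to a log2 change of 1 and 99 of 100 set to 2 (2.01% of calls false), and the thymus step (10265 genes) found 73 and 93 of 100 (4.6% false). The step for the spleen minus thymus difference (10360 genes) found 66 and 98 of 100 (4.09% false). The changed genes were drawn from those with a mean more than 1 above the filter on the log2 scale. The noise was normal and independent between genes and arrays. These rates thus do not cover genes near the filter, such as Peg3, Igf2 and Cdkn1c, or differences in spread shared by a whole array.

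The members, the lists and the rule for naming genes (all members; from each list and comparison up to 8 genes past 0.05 by adjusted p; the 5 genes most like Airn and Igf2r) were chosen with earlier results of these data known. The genes of the background level are 18 of 24 listed: 21 have a row, and Gcg, Neurod1 and Pdx1 were left out because 1 array holds islet transcripts.

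Deviations from the group means correlated between same-numbered untagged arrays (r of 0.63, 0.14 and 0.47 for numbers 3, 4 and 5, each over 0.1). Untagged number 4 with number 5 gave 0.27 and 0.3, more than the 0.14 within number 4. The numbers were taken to pair the untagged arrays, which rests on the values alone. Perinate-tagged with untagged perinate-treated arrays of the same number, 4 or 5, gave -0.11 and 0. Same-numbered thymus arrays gave -0.05, 0.06 and 0.12 and were not taken as pairs. The replicate block, used only as an alternative, still grouped all arrays of a tissue by number, tagged and thymus arrays included. It thus also joined arrays that these values do not show to be paired. Results were recomputed with other scalings (quantile, median), filters and variance priors, with array weights, fewer arrays, the replicate block or the interquartile range in the fit, with the mean of a gene's rows, with log2(value + 16) and without each array. Python 3.11.15 and matplotlib 3.10.9 drew the figures.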

Additional observations from a re-analysis of the deposited data

Results flagged for a closer look

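These results were marked because a test of 1 difference against another passed (limma, adjusted p under 0.05, log2 scale, SE). The spleen differences compare times of treatment in mice of the same age, and the thymus difference compares mice of 2 ages. The tagged difference (perinate-tagged minus adult-tagged) exceeded the untagged one by -1.13 ± 0.24 for Airn (adjusted p 0.0124), 0.99 ± 0.23 for Tnfrsf23 (0.0195), 0.99 ± 0.21 for Uhrf1 (0.012), 2.59 ± 0.24 for Igf2bp3 (0.000132) and -1.47 ± 0.26 for Igf1r (0.0033).

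The tagged spleen difference minus the thymus difference was -1.08 ± 0.24 for Airn (adjusted p 0.00863) and -0.89 ± 0.23 for Igf2r (0.0239). Among other imprinted genes and neighbours it was 0.91 ± 0.18 for Osbpl5 (0.00399), 1.19 ± 0.24 for Tnfrsf23 (0.00554), -1.17 ± 0.26 for Sfmbt2 (0.0108), 1.15 ± 0.27 for Pon3 (0.0124) and 1.16 ± 0.29 for Gatm (0.0192). All 4 means that enter the differences of Pon3 and of Gatm lie below the background level of 7.63, as do 3 of the 4 for Tnfrsf23. Gatm reached the filter only through adult thymus. For the genes that write or protect imprints it was -0.69 ± 0.18 for Trim28 (0.0255) and -0.91 ± 0.24 for Dnmt3a (0.0264). In the growth factor and mannose-6-phosphate list it was 0.72 ± 0.19 for Gnptg (0.0264) and -1.12 ± 0.30 for Igf1r (0.0299).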

How the results depend on the processing

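The lower Airn of perinate-tagged against adult-tagged cells passed 0.05 under all 25 alternatives (-1.29 to -0.91, adjusted p up to 0.0304), and the higher Plagl1 of perinate thymus under all 16 (0.64 to 0.97, up to 0.0172). None of the 10 member differences past 0.05 changed sign under any alternative run, and of the 34 that missed it 20 did under some alternative. Of 2 members called in perinate-tagged against adult-tagged cells, 1 (Airn) was called with the stricter filter, the replicate block or the interquartile range as a covariate, and 1 to 3 without 1 array. The tagged minus untagged difference had 1 member: 2 with array weights and 0 with the replicate block (Airn -0.93, adjusted p 0.0537). Perinate-tagged against untagged perinate-treated cells had 1: 0 without the filter or with only those groups in the fit, 2 with array weights, and 0 to 1 without 1 array. The thymus had 4, and 1 to 4 without 1 array; 1 (Plagl1) remained without perinate thymus replicate 1. The spleen minus thymus difference had 2: 5 with array weights, 1 with the replicate block (Plagl1, in place of Airn at adjusted p 0.0534 and Igf2r at 0.0622), and 1 to 2 without 1 array. The cause of these moves was not tested. Of 51 differences called in the 3 wider lists 0 changed sign and 17 passed under every alternative run; among the others Atp10a and Ehmt2 in the spleen passed under 13 and 15 of 25, and Sfmbt2 and Ehmt2 in the thymus under 8 of 16.

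Counts of all genes moved more. Perinate-tagged against adult-tagged had 2020 and went to 5904 (array weights), 3371 (only those groups), 655 (block), 376 (interquartile range), 1310 (replicate numbers 1 to 3 against 4 and 5 as a covariate, added after seeing the data) and 906 to 2511 without 1 array. The tagged minus untagged difference had 506 and went to 1077 (weights), 274 (block), 777 without both odd arrays (added after seeing the data) and 279 to 679. Perinate-tagged against untagged perinate-treated had 760 and went to 3867 (weights), 1207 (number covariate) and 299 to 1001. Adult-tagged against untagged adult-treated had 28 and went to 17 (no filter), 71 (weights), 120 (only those groups), 11 (block), 0 (interquartile range or number covariate), 16 (log2(value + 16)), 783 without both odd arrays and 0 to 774. The untagged comparison had 0 and 49 with the block in a fit of its own (added after seeing the data), 9 without both odd arrays and 0 to 5. The thymus had 2589 and went to 1566 (weights) and 707 to 4388. The spleen minus thymus difference had 703 and went to 1064 (quantile normalization), 5085 (weights), 1462 (interquartile range) and 393 to 1069. Quantile normalization shifted the median of all genes by -0.155 in the tagged comparison and -0.177 in the thymus, and the share of calls that were higher went to 54.2%, against 82.1% as reported, and to 53.7%, against 76%. With the interquartile range as a covariate the thymus share was 44.7%. Median centring shifted the thymus median by 0.103 (86.5% higher). Dlk1 in the thymus was lost after quantile normalization, without the filter (adjusted p 0.0503) and without adult thymus replicate 3 or any 1 perinate thymus array. In the thymus and between tagged and untagged perinate cells the replicate block changed no other member call. Signal over background limits Peg3, Igf2, Cdkn1c, Grb10 and Meg3, and also Ddc, Gatm, Pon3 and Gga2. It limits in part Uhrf1, Tnfrsf23, Sfmbt2 and Igf2bp3, which have some means below the background level.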
